A study of Mus musculus with 11 samples.

Results

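The heat shock genes described here are 10 chaperone genes whose products work outside the endoplasmic reticulum, taken by gene symbol from a table of 16228 genes measured in mouse cerebral cortex. They are Hspa1a and Hspa1b (the inducible cytosolic HSP70 proteins), Hspa8 (the constitutive HSP70 of the cytosol), Hsph1 (HSP110), Hsp90aa1 (the inducible cytosolic HSP90), Dnajb1 (a J-domain protein of HSP70), Bag3 (a nucleotide exchange factor of HSP70), Hspb1 (a small heat shock protein), Hspd1 (HSP60 of the mitochondrial matrix) and Hspe1 (its lid, HSP10). All 10 symbols were found in the table, and all 10 passed the filter on low values that left 14330 genes for testing.

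Chaperones of these families hold other proteins in a foldable state, and refold or pass on those that have lost their shape. HSP70 binds exposed stretches of a client, J-domain proteins deliver clients and start the hydrolysis of ATP, and HSP110 and BAG proteins exchange the nucleotide so that the client is released. Many of these genes are induced together when unfolded protein frees heat shock factor 1, which then binds arrays of the short unit GAA and its reverse complement TTC in their promoters. In brain, Hspa8 and Hsp90aa1 are made in quantity by unstressed neurons, whereas Hspa1a, Hspa1b and Hspb1 are usually low there without stress or injury.

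The series dealt with PRKCI and PRKCZ, the atypical members of the protein kinase C family, in cells of the oligodendrocyte lineage. Total RNA from a punch of cerebral cortex was sequenced from 11 mice at postnatal day 30, none of which had been treated, with 1 library per animal. The groups were 4 Prkci cKO mice (Ng2 Cre+ Prkci f/f), 3 Prkcz cKO mice (Ng2-Cre+ Prkcz f/f) and 4 controls without Cre. Control replicates 3 and 4 carry the label Pkcz f/f and control replicates 1 and 2 the label Pkcz f/+, so that all controls carried floxed alleles of Prkcz and none came from the Prkci line or carried Cre. Ng2-Cre is driven by regulatory sequence of Cspg4, the gene of a proteoglycan of oligodendrocyte precursors and pericytes, so the libraries mix the cells it acts in with the neurons, astrocytes, microglia and vessels of the punch. In such bulk samples, fewer cells of a type and less RNA per cell cannot be told apart.

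Depth, read from the steps between low values, was 14740000 to 28170000 reads per library. The labels were checked against the targeted genes. Prkci ranged from 65.0 to 68.3 in Prkci cKO and from 85.3 to 90.7 in controls, and its change of -0.39 (log2, SE 0.045) passed with an adjusted p of 9.84e-04 in limma. Prkcz ranged from 262 to 292 in Prkcz cKO and from 298 to 347 in controls (log2 change -0.22, SE 0.055), a difference with an adjusted p of 0.0966 although the ranges did not overlap. Markers of cortical excitatory neurons were present in every library, with a summed signal of 2558 to 2878 over 7 of 7 genes.

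Heat shock gene levels spanned a wide range in this tissue. Values are the authors' normalised signal, and levels were compared between genes after division by the joint length of all annotated exons in kb. On that per-kb scale Hspa8 (554 on average over 11 libraries) and Hsp90aa1 (449) were highest. Hspd1 (74.2) and Hsph1 (60.7) followed, with overlapping ranges over libraries and the reverse order before division (196 and 441). Dnajb1 and Hspe1 came next at 21.4 and 21.3 per kb, a pair whose ranges over libraries overlapped. Hspb1 (3.29 per kb), Bag3 (3.10), Hspa1a (2.95) and Hspa1b (2.67) were lowest, and their ranges over libraries also overlapped. The highest of these averages was thus that of the constitutive HSP70, and the lowest that of an inducible one.

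**Figure D1:**
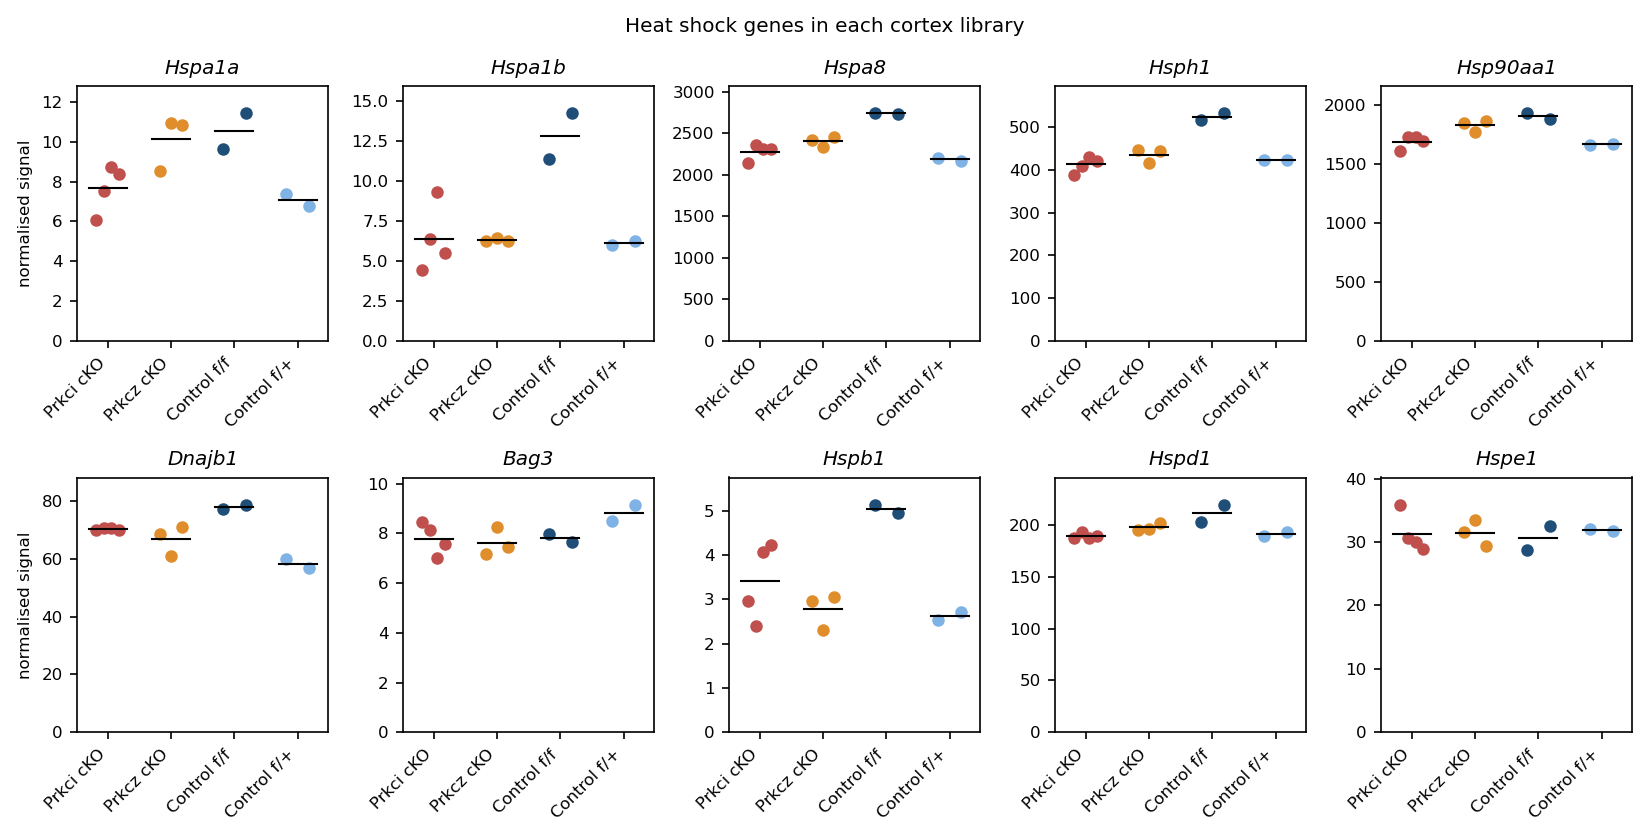
Normalised signal of each heat shock gene (y axis, from 0, a separate scale for each gene) in each cortex library, by group from left to right: Prkci cKO (n = 4), Prkcz cKO (n = 3), Control f/f (n = 2) and Control f/+ (n = 2); points are libraries and bars are group means. In 7 of the 10 genes both f/f controls lie above all 9 other libraries, and in Dnajb1 both f/+ controls lie below all cKO libraries.

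Against all controls, none of the heat shock genes passed the test in either knockout. In Prkci cKO against controls, 0 of 10 passed an adjusted p of 0.05 in the limma fit over all genes, where 1.61% of all tested genes passed. In Prkcz cKO, 0 of 10 passed, against 0.649% of all genes. At an unadjusted p under 0.05 there was 1 of the 10 in Prkci cKO (12.1% of all genes) and 0 in Prkcz cKO (15.0%). The median log2 change of the 10 genes was -0.10 in Prkci cKO and -0.03 in Prkcz cKO, beside medians of 0.00 and -0.01 over all tested genes. For no member did all Prkci cKO or all Prkcz cKO libraries lie below, or above, all 4 controls; such separation was seen in 5.32% (below) and 3.18% (above) of all genes for Prkci cKO and in 6.72% and 5.16% for Prkcz cKO. When the knockouts were averaged, 0 of 10 passed against 1.59% of all genes (1 of 10 at an unadjusted p under 0.05, with 12.5% of all genes).

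**Figure D2:**
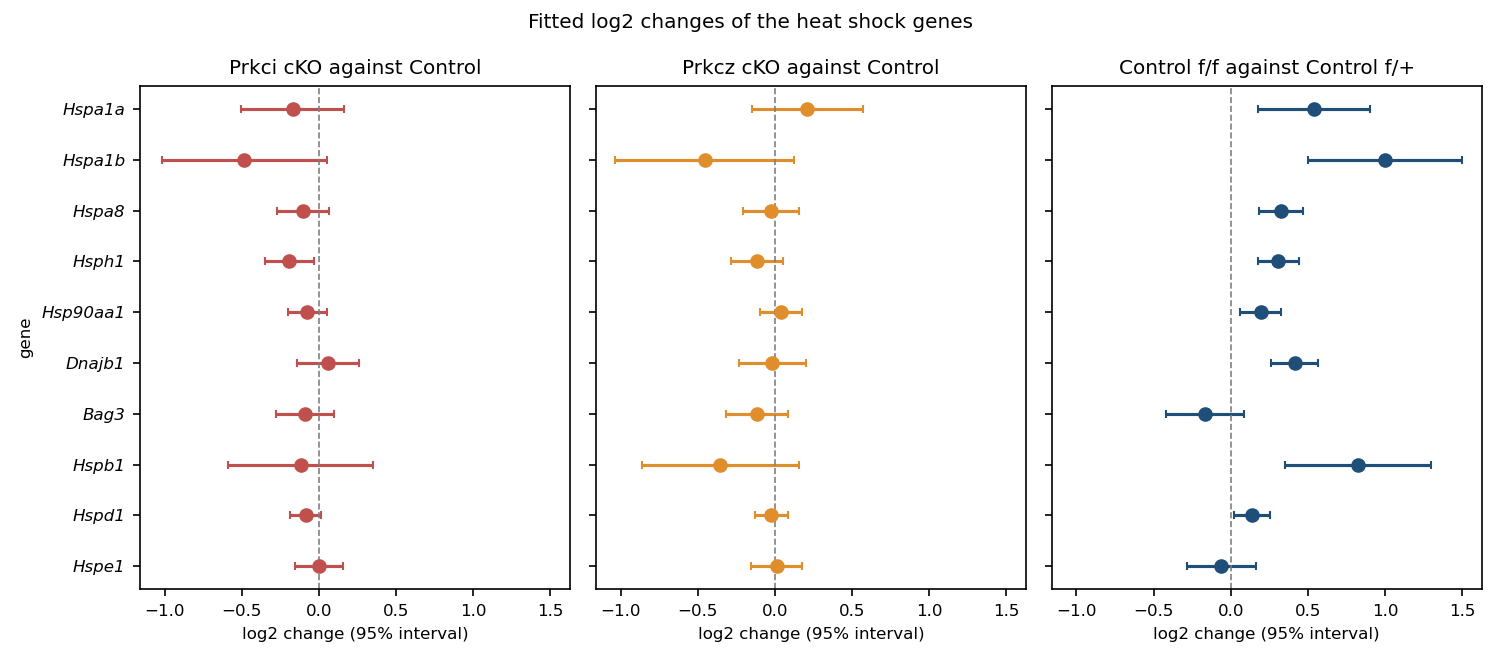
Fitted log2 change (x axis) of each heat shock gene with its 95% interval from the limma fit, in Prkci cKO against Control (left), Prkcz cKO against Control (middle) and Control f/f against Control f/+ (right); the dashed line marks no change. Most intervals of the knockouts include 0, with Hsph1 in Prkci cKO (-0.35 to -0.03) the exception, whereas 8 of the 10 intervals of the control genotypes lie above 0.

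The inducible HSP70 genes are neighbours on chromosome 17 (GRCm38), where Hspa1a (chr17:34969190-34972156) and Hspa1b (chr17:34956436-34959238) lie on the minus strand with 9951 bases between them. Their coding sequences were identical at 99.4% of aligned positions, with 8 mismatches, and 47.1% of all stretches of 100 bases of Hspa1a, the length of a read, were found unchanged in Hspa1b. Reads of that kind cannot be assigned to 1 of the genes, so the split between them depends on the authors' counting and each value is uncertain. The annotated gene Gm20481 shares 2225 bases with Hspa1a on the opposite strand. Strand use in the counting is not stated, which adds to the uncertainty of Hspa1a. Of the first 250 bases before the start site, 3 differ between Hspa1a and Hspa1b (C44T, T47C and T249G, Hspa1a first, counted from 1 at the 5′ end). The upstream sequences, 5′ to 3′ from RefSeq on GRCm38.p6, are shown because the genes are so alike and the values of Hspa1b spread most among the members. Capitals mark the pair of heat shock units GAANNTTC.
Hspa1a, minus strand, chr17:34972157-34972406: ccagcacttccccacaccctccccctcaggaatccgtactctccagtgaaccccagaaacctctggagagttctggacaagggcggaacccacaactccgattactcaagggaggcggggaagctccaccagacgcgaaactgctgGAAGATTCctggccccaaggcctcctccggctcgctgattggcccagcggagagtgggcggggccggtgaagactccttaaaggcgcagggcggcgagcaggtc
Hspa1b, minus strand, chr17:34959239-34959488: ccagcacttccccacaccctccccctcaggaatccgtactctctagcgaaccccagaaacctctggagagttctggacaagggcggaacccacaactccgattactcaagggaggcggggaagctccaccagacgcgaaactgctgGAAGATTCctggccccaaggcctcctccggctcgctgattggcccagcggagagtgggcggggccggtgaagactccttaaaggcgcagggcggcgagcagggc

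Hspa1a had 6.07, 7.51, 8.71 and 8.38 in Prkci cKO and 8.52, 10.96 and 10.86 in Prkcz cKO, against 9.64 and 11.43 in f/f controls and 7.36 and 6.78 in f/+ controls. Its log2 change was -0.17 (SE 0.155, limma adjusted p = 0.723) in Prkci cKO and 0.21 (SE 0.167, adjusted p = 0.574) in Prkcz cKO. The Prkci cKO libraries and the f/+ controls lay below both f/f controls, and the Prkcz cKO libraries, which overlapped the f/f controls, lay above both f/+ controls. Hspa1b had 4.45, 6.35, 9.27 and 5.48 in Prkci cKO and 6.26, 6.44 and 6.22 in Prkcz cKO, against 11.35 and 14.21 in f/f controls and 5.97 and 6.22 in f/+ controls. The fitted change of Hspa1b was -0.48 (SE 0.249, adjusted p = 0.481) in Prkci cKO and -0.46 (SE 0.269, adjusted p = 0.443) in Prkcz cKO, the largest fitted changes among the members in either comparison. Only the f/f controls exceeded 10 for Hspa1b, and 8 of the 9 other libraries held less than 7. The paralogs parted in Prkcz cKO, where replicates 2 and 3 were near the f/f controls for Hspa1a and near the f/+ controls for Hspa1b. At the estimated depth, Hspa1a rested on 146 to 248 reads and Hspa1b on 91.7 to 306 reads per library, for which counting error alone is at most 8.28% and 10.4% of the value.

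Hspa8, the HSP70 that neurons use in routine folding and in uncoating clathrin vesicles, was the member with the highest signal. It had 2147, 2356, 2310 and 2307 in Prkci cKO and 2424, 2334 and 2454 in Prkcz cKO, against 2744 and 2739 in f/f controls and 2209 and 2171 in f/+ controls. The f/f controls had a coefficient of variation of 0.119% and stood above every other library. Its log2 change was -0.10 (95% interval -0.27 to 0.06, limma adjusted p = 0.654) in Prkci cKO and -0.03 (-0.21 to 0.15, adjusted p = 0.897) in Prkcz cKO.

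Hsph1, the HSP110 that exchanges nucleotide on HSP70 and helps it to dissolve aggregates, came nearest to a change in a knockout. It had 388, 409, 431 and 421 in Prkci cKO and 446, 416 and 444 in Prkcz cKO, against 516 and 532 in f/f controls and 423 and 423 in f/+ controls. Its mean was 412 ± 18.5 (SD, n = 4) in Prkci cKO, 435 ± 16.3 (SD, n = 3) in Prkcz cKO and 474 ± 58.8 (SD, n = 4) in controls. The larger SD of the controls came from the distance between their genotypes, since f/f controls varied by 2.12% and f/+ controls by 0.102% (coefficient of variation, n = 2 each). The log2 change was -0.19 (SE 0.073, limma adjusted p = 0.287) in Prkci cKO and -0.11 (SE 0.079, adjusted p = 0.515) in Prkcz cKO. Hsph1 (chr5:149614287-149636376, minus strand) has a RefSeq start 40 bases inside this annotated span, at base 149636336, with heat shock units on both sides of it. The short stretches that hold them are shown from RefSeq on GRCm38.p6, minus strand, with the motif matches in capitals.
Hsph1, last 50 bases before this RefSeq start, chr5:149636337-149636386: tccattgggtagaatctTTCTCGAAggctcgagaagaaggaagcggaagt
Hsph1, bases 31 to 50 from the same start (the start being base 1), chr5:149636287-149636306: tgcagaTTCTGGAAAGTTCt

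Hsp90aa1, the stress-inducible HSP90 that matures kinases and steroid receptors, had 1612, 1736, 1730 and 1695 in Prkci cKO and 1855, 1773 and 1871 in Prkcz cKO, against 1933 and 1884 in f/f controls and 1662 and 1675 in f/+ controls. All 4 Prkci cKO libraries lay below all 3 Prkcz cKO libraries. The Prkcz cKO libraries lay between the control genotypes. Its log2 change was -0.08 (SE 0.058, limma adjusted p = 0.663) in Prkci cKO and 0.04 (SE 0.063, adjusted p = 0.802) in Prkcz cKO.

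Among the co-chaperones, Dnajb1, which hands clients to HSP70 and is itself a heat shock factor target, had 69.9, 70.7, 70.7 and 70.0 in Prkci cKO and 68.5, 61.0 and 71.0 in Prkcz cKO, against 77.2 and 78.8 in f/f controls and 59.9 and 57.0 in f/+ controls. The knockouts lay between the control genotypes, with no overlap on either side. Its log2 change against all controls was 0.06 (SE 0.093, limma adjusted p = 0.865) in Prkci cKO and -0.02 (SE 0.101, adjusted p = 0.954) in Prkcz cKO. The Prkci cKO libraries differed by 0.626% (coefficient of variation). That is less than the 2.25% that counting error gives at 1970 reads, the most estimated for this gene in any library. Over all libraries the gene rested on 1046 to 1970 reads, with counting error of 2.25% to 3.09%.

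Bag3, which couples HSP70 and small heat shock proteins to selective autophagy, had 8.44, 8.13, 7.0 and 7.56 in Prkci cKO and 7.17, 8.25 and 7.45 in Prkcz cKO, against 7.98 and 7.64 in f/f controls and 8.49 and 9.15 in f/+ controls. The f/+ controls held the highest values, so Bag3 ran against most of the other members. Its log2 change was -0.09 (SE 0.087, limma adjusted p = 0.743) in Prkci cKO and -0.12 (SE 0.094, adjusted p = 0.575) in Prkcz cKO.

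Hspb1, the small heat shock protein that astrocytes and vessels make under stress, was among the lowest members. It had 2.95, 2.40, 4.06 and 4.22 in Prkci cKO and 2.96, 2.30 and 3.05 in Prkcz cKO, against 5.13 and 4.94 in f/f controls and 2.54 and 2.71 in f/+ controls. Both f/f controls exceeded all other libraries, and the Prkci cKO libraries fell into a lower and a higher pair. The log2 change was -0.12 (SE 0.219, limma adjusted p = 0.883) in Prkci cKO and -0.35 (SE 0.236, adjusted p = 0.497) in Prkcz cKO. It rested on only 45 to 119 reads per library, with counting error of 9.17% to 14.9%. Hspb1 (chr5:135887919-135889563, plus strand) holds a pair of heat shock units at 2 places upstream, in capitals in the sequence from RefSeq on GRCm38.p6.
Hspb1, plus strand, chr5:135887669-135887918: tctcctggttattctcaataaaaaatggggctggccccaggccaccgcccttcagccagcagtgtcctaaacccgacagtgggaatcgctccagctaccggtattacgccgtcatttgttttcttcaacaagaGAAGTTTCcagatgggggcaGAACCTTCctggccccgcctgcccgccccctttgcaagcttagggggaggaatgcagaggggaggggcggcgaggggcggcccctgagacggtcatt

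The mitochondrial chaperonin is encoded by a head-to-head gene pair on chromosome 1, with Hspd1 (chr1:55077835-55088243) on the minus strand and Hspe1 (chr1:55088132-55091307) on the plus strand. Their annotated spans share 112 bases on opposite strands, and exons of each gene reach into the span of the other. The annotation holds 5 named pseudogenes of Hspd1 and 6 of Hspe1. Strand use in the counting is not stated in the labels or notes, so a part of each value is uncertain. The stretch shown is upstream of Hspe1 and lies between its RefSeq start and a RefSeq start of Hspd1 216 bases away. Another RefSeq start of Hspd1, at base 55088243, lies 95 bases beyond that of Hspe1. From that start the stretch is inside Hspd1 and not upstream of it. The capitals mark overlapping runs of 3 heat shock units, TTCNNGAANNTTC and GAANNTTCNNGAA (RefSeq, GRCm38.p6, plus strand).
Hspe1 and Hspd1, chr1:55087948-55088147: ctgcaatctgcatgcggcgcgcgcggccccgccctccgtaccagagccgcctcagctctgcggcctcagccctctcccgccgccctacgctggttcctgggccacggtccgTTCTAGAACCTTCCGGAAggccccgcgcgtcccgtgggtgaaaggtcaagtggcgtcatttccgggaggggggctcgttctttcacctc

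Hspd1 had 187, 194, 187 and 189 in Prkci cKO and 195, 196 and 202 in Prkcz cKO, against 203 and 220 in f/f controls and 190 and 194 in f/+ controls. All Prkci cKO libraries lay below all Prkcz cKO libraries and all Prkcz cKO libraries below both f/f controls. Its log2 change was -0.09 (SE 0.047, limma adjusted p = 0.496) in Prkci cKO and -0.02 (SE 0.050, adjusted p = 0.852) in Prkcz cKO. Hspe1 had 35.9, 30.6, 30.04 and 28.9 in Prkci cKO and 31.7, 33.5 and 29.4 in Prkcz cKO, against 28.7 and 32.5 in f/f controls and 32.1 and 31.7 in f/+ controls. For Hspe1 all groups overlapped, including the control genotypes, with log2 changes of 0.00 (SE 0.072, adjusted p = 0.998) in Prkci cKO and 0.01 (SE 0.078, adjusted p = 0.961) in Prkcz cKO.

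The main spread of these genes lay inside the control group and followed the genotype labels of the controls. In Hspa1b, Hsph1, Dnajb1, Hspb1, Hsp90aa1, Hspa8 and Hspd1, 7 of the 10 members, both f/f controls were above all 9 other libraries, which was the case for 3.68% of all tested genes. In 0 of 10 both were below all other libraries, against 3.87% of all genes. In 8 of 10 both f/f controls were above both f/+ controls, against 23.2% of all genes, and in 1 of 10 (Bag3) both were below, against 24.0%. A fit of 4 groups, with the controls coded by genotype label after their values had been seen, called 1 of 10 members, against 0.154% of all genes. Dnajb1 was higher in f/f controls at 78.0 ± 1.10 (SD, n = 2) than in f/+ controls at 58.4 ± 2.05 (SD, n = 2), which is 0.41 on a log2 scale (SE 0.070, limma adjusted p = 0.0447). This call was lost on leaving out any 1 of the 4 controls (adjusted p 0.1197 to 0.327) and without the variance trend (0.137).

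Larger differences between the control genotypes were fitted for members of lower signal and did not pass. Hspa1b averaged 12.8 ± 2.02 in f/f controls and 6.10 ± 0.177 in f/+ controls (SD, n = 2 each), with a log2 change of 1.002 (95% interval 0.50 to 1.503, limma adjusted p = 0.172). Hspb1 averaged 5.04 ± 0.134 in f/f controls and 2.63 ± 0.1202 in f/+ controls (log2 change 0.83, adjusted p = 0.204). Hspa1a had a log2 change of 0.54 (adjusted p = 0.258), Hspa8 0.32 (adjusted p = 0.117), Hsph1 0.31 (adjusted p = 0.0958), Hsp90aa1 0.19 (adjusted p = 0.269) and Hspd1 0.14 (adjusted p = 0.342). Bag3 and Hspe1 had log2 changes of -0.16 (adjusted p = 0.576) and -0.06 (adjusted p = 0.842). The median over the 10 genes was 0.32, beside 0.00 over all tested genes, and 8 of 10 had an unadjusted p under 0.05 against 12.6% of all genes. Genotype, replicate number and any litter or day of dissection that went with them cannot be told apart in these labels.

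**Figure D3:**
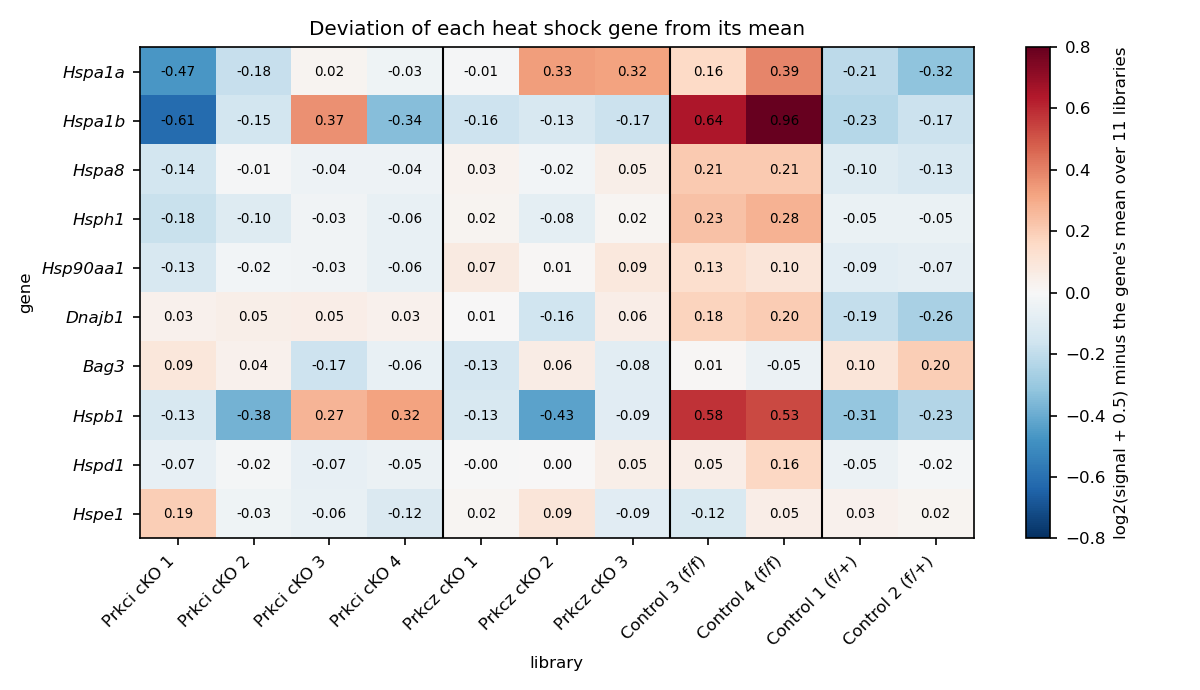
Deviation of each heat shock gene (rows) from its mean over 11 libraries on the log2(signal + 0.5) scale, in each library (columns, grouped from left to right as Prkci cKO, Prkcz cKO, Control f/f and Control f/+); red is above and blue below the mean. The columns of Control 3 and Control 4 are red in nearly every row, up to 0.96 for Hspa1b in Control 4, the exceptions being Hspe1 in Control 3 (-0.12) and Bag3 in Control 4 (-0.047).

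Other genes also differed in these controls, and their values stand beside the heat shock genes. Summed over 22 of 22 immediate early genes, induced in neurons by activity or handling, the signal was 788 to 918 in Prkci cKO and 694 to 899 in Prkcz cKO, against 1521 and 1682 in f/f controls and 1541 and 941 in f/+ controls. Of the 21 tested, 11 were above all other libraries in both f/f controls, against 3.68% of all genes. The median log2 change of the 21 between the control genotypes was 0.40, with 0 passing the limma threshold (9 at an unadjusted p under 0.05, against 12.6% of all genes). Mature oligodendrocyte markers (10 of 10 in the table) summed to 2687 to 4359 in Prkci cKO and 3662 to 4026 in Prkcz cKO, against 5129 and 5620 in f/f controls and 7769 and 6711 in f/+ controls. Striatal neuron markers (7 of 7) summed to 252 to 496 in Prkci cKO and 527 to 1228 in Prkcz cKO, against 725 and 886 in f/f controls and 855 and 540 in f/+ controls. Prkcz cKO replicate 3, the library of lowest estimated depth, held the 1228, and replicates 1 and 2 held 527 and 558. Prkci cKO libraries were thus below all others for the striatal sum. In the limma fit, 7 of 7 striatal genes had an unadjusted p under 0.05 in Prkci cKO against controls (12.1% of all genes). After adjustment 0 passed, against 1.61% of all genes (median log2 change -1.13). Endothelial markers (9 of 9) summed to 236 to 260 in Prkci cKO and 174 to 186 in Prkcz cKO, against 235 and 217 in f/f controls and 215 and 228 in f/+ controls. In Prkcz cKO the endothelial sum was below that of every other library, and 2 of 9 genes were called lower than in controls. Over all genes, 0.649% were called in Prkcz cKO, in either direction. Choroid plexus markers (5 of 5) summed to 430 to 687 in Prkci cKO and 596 to 973 in Prkcz cKO, against 471 and 616 in f/f controls and 92.6 and 955 in f/+ controls. Erythrocyte markers (3 of 5 listed in the table) summed to 198 to 412 in Prkci cKO and 167 to 286 in Prkcz cKO, against 342 and 316 in f/f controls and 138 and 296 in f/+ controls. No marker of these lists was at 0 in every library. The immediate early sum of Control 1, an f/+ control, lay between those of the f/f controls. Gene by gene, 12 of the 21 tested were higher in both f/f controls than in both f/+ controls, against 23.2% of all genes. The part of these genes or cells in the heat shock values was not tested.

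Because the control genotypes differed, the comparison of a knockout with controls depended on which controls were used. Against the f/f controls the 4-group fit called 2 of 10 members in Prkci cKO, both lower, with 0.872% of all genes called (8 of 10 and 15.5% of all genes at an unadjusted p under 0.05). On the log2 scale, Hsph1 fell by 0.35 (SE 0.053, limma adjusted p = 0.0108) and Hspa1b by 0.98 (SE 0.201, adjusted p = 0.0385). For Hspa8 the change was -0.27 (SE 0.057) with an adjusted p of 0.0515. The Hsph1 call was lost without Control replicate 3 or Control replicate 4 and kept in the 9 other fits that left out 1 library (adjusted p 0.00708 to 0.181 over the 11), whereas that of Hspa1b was kept in only 2 of the 11 (0.00293 to 0.466). In Prkcz cKO against the f/f controls, 0 of 10 were called, against 0.398% of all genes (5 of 10 and 13.7% of all genes at an unadjusted p under 0.05). The nearest there were Hsph1 (log2 change -0.27, adjusted p = 0.0618) and Hspa1b (-0.96, adjusted p = 0.0830). All Prkci cKO libraries lay below both f/f controls in 8 of 10 members (15.2% of all genes), and all Prkcz cKO libraries in 7 of 10 (15.3%).

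Against the f/+ controls no member was called lower in either knockout. In Prkci cKO, 1 of 10 members was called, with 2.06% of all genes called (1 of 10 and 11.5% of all genes at an unadjusted p under 0.05). This was Dnajb1, which rose by 0.27 (SE 0.060, limma adjusted p = 0.0392). That call was lost on leaving out any 1 Prkci cKO library or any 1 control (adjusted p up to 0.248). In Prkcz cKO against the f/+ controls, 0 of 10 were called, with 1.38% of all genes called (4 of 10 and 17.5% at an unadjusted p under 0.05). Hspa1a had the largest fitted change there, 0.48 (SE 0.153, adjusted p = 0.144). Hsph1, called against the f/f controls, had a log2 change of -0.04 (adjusted p = 0.879) in Prkci cKO against the f/+ controls, and Hspa1b one of 0.02 (adjusted p = 0.988). These comparisons share the knockout libraries, so they are not separate evidence.

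Between the knockouts, 0 of 10 members passed in Prkci cKO against Prkcz cKO, with 0.300% of all genes called in the limma fit (1 of 10 and 16.0% of all genes at an unadjusted p under 0.05). Hspa1a averaged 7.67 ± 1.18 (SD, n = 4) in Prkci cKO and 10.1 ± 1.38 (SD, n = 3) in Prkcz cKO, a log2 change of -0.38 (95% interval -0.74 to -0.02, adjusted p = 0.292). Hsp90aa1 (log2 change -0.11, adjusted p = 0.378) and Hspd1 (-0.06, adjusted p = 0.542) were lower in all 4 Prkci cKO libraries than in all 3 Prkcz cKO libraries. That is 2 of 10 members, and 6.43% of all genes were separated in this direction (0 of 10 in the other direction, with 7.36% of all genes). Hspa1b, near-identical to Hspa1a, had a log2 change of -0.03 (95% interval -0.61 to 0.55, adjusted p = 0.969). The striatal and endothelial sums given above also separate these knockouts, as do 3 further marker sums. Astrocyte markers summed to 5696.5 to 6437 in Prkci cKO and 4309 to 5487 in Prkcz cKO, where replicate 3 held the 4309 and replicates 1 and 2 held 5487 and 5422. Microglia markers summed to 345 to 370 and 325 to 337, and those of cortical excitatory neurons to 2763 to 2878 and 2697 to 2710. Gene by gene, all Prkci cKO libraries lay above all Prkcz cKO libraries in 3 of 7 astrocyte and 3 of 5 microglia genes. The same held for 0 of 7 cortical excitatory neuron genes, against 7.36% of all genes. The part of these cells in the differences was not tested.

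Pairs of members were then compared for how they varied from library to library, with 45 pairs in all. Because the f/f controls stood apart, pairs were read over the 9 other libraries, where 1 of 45 pairs passed an adjusted p of 0.05 by an exact permutation test. Hsp90aa1 and Hspa8, the most abundant members per kb, had a Pearson r of 0.94 (exact two-sided permutation p = 2.54e-04, adjusted p = 0.0114) and a Spearman rho of 0.97 (p = 1.65e-04, adjusted p = 0.00744) over these 9 libraries. Without the 2 libraries farthest from the median of Hsp90aa1, r was 0.88, and on deviations from the means of the 4 groups over all 11 libraries it was 0.92. The near-identical paralogs Hspa1a and Hspa1b had an r of 0.44 (exact permutation p = 0.228, adjusted p = 0.379; rho 0.65, adjusted p = 0.230), which was 0.15 without the 2 farthest libraries. The subunit genes Hspd1 and Hspe1, a head-to-head pair, had an r of -0.26 (exact permutation p = 0.501, adjusted p = 0.663). Their rho was -0.10 (permutation adjusted p = 0.880), and their r was -0.14 without the 2 farthest libraries. The median r over the 45 pairs was 0.05 in the 9 libraries, and 0.57 when the f/f controls were included. With the f/f controls, 17 of 45 pairs had a permutation adjusted p under 0.05 by r, and 5 by both r and rho. The 9 libraries were chosen after the values were seen.

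**Figure D4:**
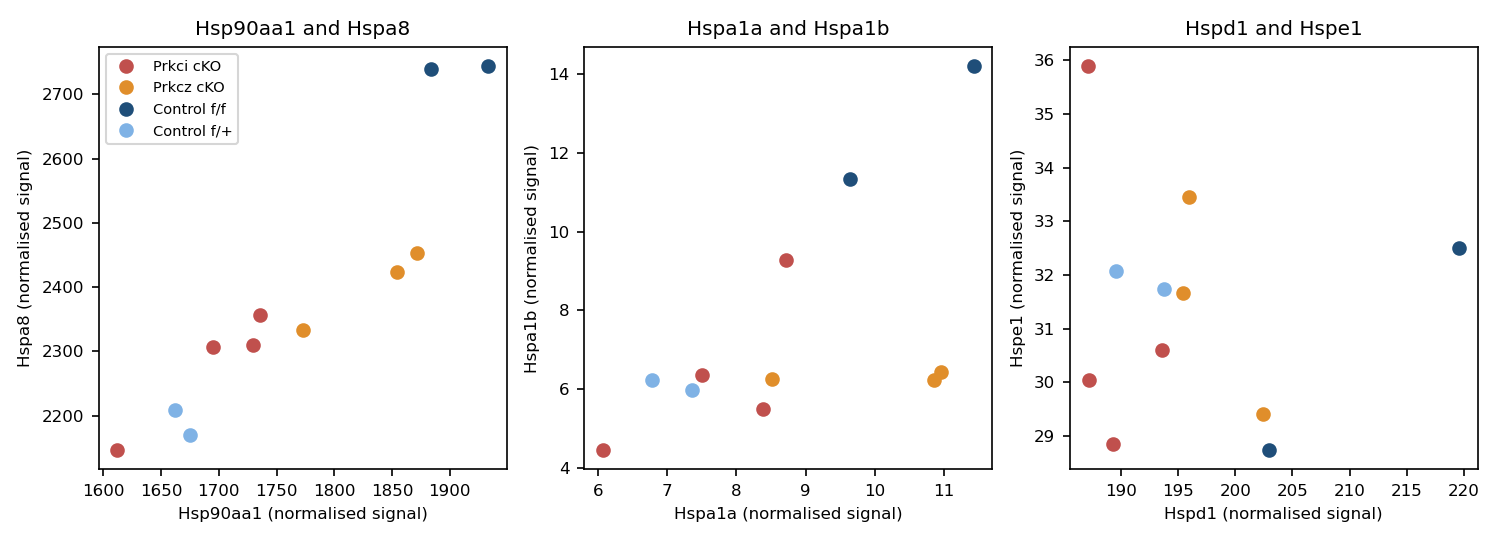
Normalised signal of Hspa8 against Hsp90aa1 (left), Hspa1b against Hspa1a (middle) and Hspe1 against Hspd1 (right), 1 point per library, coloured by group; axes do not start at 0. Hsp90aa1 and Hspa8 rise together across all groups, Hspa1b sets the f/f controls apart while Hspa1a also has high values in Prkcz cKO, and Hspe1 shows no common order with Hspd1.

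The genes whose pattern over the 11 libraries was most like that of the heat shock genes were sought among 12124 genes, by Pearson r with the mean of the members' standardised log2 values. That mean was 0.94 and 1.37 in the f/f controls and between -0.53 and 0.14 in the other libraries. The 8 genes with the highest r were Hsp90b1 (0.98), Rpn1 (0.98), Calr (0.97), Dnajb11 (0.96), Fkbp4 (0.96), Taf5 (0.95), Lman2 (0.95) and Stip1 (0.94). Hsp90b1 (GRP94), Calr (calreticulin) and Dnajb11 are chaperones of the endoplasmic reticulum, and Fkbp4 and Stip1 are partners of cytosolic HSP90. These r values rest in part on the f/f controls, since over the 9 other libraries they ranged from 0.55 for Lman2 to 0.93 for Stip1 and Rpn1. Hsp90b1 averaged 538 in f/f controls and 416 in f/+ controls (n = 2 each), and Calr 537 in f/f controls and 415 in f/+ controls. These genes were chosen for a pattern that is high in the f/f controls, so the values describe that choice and carry no test.

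The promoters of the members were searched for the heat shock units over 250 bases before to 50 after each RefSeq start site. The table held 11 windows for 8 of the 10 members, with none for Hsp90aa1 and Hspa8. A pair of units, GAANNTTC or TTCNNGAA, each of which reads the same on both strands, was found in 8 of these 11 windows (7 of the 8 members), against 15.1% of all 32851 windows. A run of 3 units, GAANNTTCNNGAA or its reverse complement TTCNNGAANNTTC, which contains the shorter motifs, was found in 4 of the 11 windows (in at least 1 window of Hsph1, Hspd1 and Hspe1), against 0.603% of all windows. These windows are not separate sites, since the Hspd1 and Hspe1 windows overlap and hold the same run. The overlapping Hsph1 windows also hold the same run as each other. The count of pairs takes the windows of Hspa1a and Hspa1b, which differ at 4 of 300 bases, as separate. Of the 8 members searched, only Dnajb1 had neither motif in its window. A match is a run of letters and not a site that any factor was shown to bind.

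Wider chaperone lists gave the setting of these genes. Of 64 tested genes in 8 lists, 0 passed the limma fit in Prkci cKO and 0 in Prkcz cKO against controls (3 and 8 at an unadjusted p under 0.05). Over all genes the shares were 1.61% and 0.649% called and 12.1% and 15.0% at an unadjusted p under 0.05. The heat shock factors and their binding protein (4 genes) had median log2 changes of 0.05 in Prkci cKO and 0.11 in Prkcz cKO, with Hsf4 at 0.12 and 0.20 and Hsbp1 at 0.05 and 0.12. In the HSP90 system (11 genes, medians -0.08 and 0.00) the smallest p belonged to Ahsa1 (-0.14) and Fkbp5 (0.17) in Prkci cKO and to Cdc37 (0.14) and Chordc1 (-0.15) in Prkcz cKO. The other HSP70 and HSP110 genes (7, medians -0.09 and -0.07) were led by Hspa1l (-0.20) and Hspa4 (-0.13) in Prkci cKO and by Hspa12b (-0.36) and Hspa14 (0.12) in Prkcz cKO. Cytosolic J-domain proteins (9, medians -0.06 and 0.00) were led by Dnajb2 (-0.17) and Dnajb5 (-0.17) in Prkci cKO and by Dnajb5 (-0.38, adjusted p = 0.0784) and Dnajb2 (-0.09) in Prkcz cKO. None of these passed.

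The other co-chaperone, mitochondrial and TRiC lists had medians near 0 in both knockouts. The other HSP70 co-chaperones (9 genes) had medians of 0.03 in Prkci cKO and 0.06 in Prkcz cKO, led by St13 (-0.10) and Stub1 (0.07) and by Stub1 (0.11) and Bag4 (0.09). Mitochondrial chaperones and proteases (11) had medians of 0.03 and 0.08, with Htra2 (0.14) and Clpb (0.03) first in Prkci cKO and Htra2 (0.24) and Grpel1 (0.14) in Prkcz cKO. Subunits of TRiC, the chaperonin of the cytosol that folds actin and tubulin, (8) had medians of -0.04 and 0.07, with Cct2 (-0.07) and Cct5 (-0.04) first in Prkci cKO and Tcp1 (0.14) and Cct6a (0.11) in Prkcz cKO. Of the other small heat shock proteins (5 tested of 6), Cryab, alpha-B crystallin of oligodendrocytes and astrocytes, had 68.7, 64.3, 57.0 and 73.9 in Prkci cKO and 62.2, 67.7 and 67.6 in Prkcz cKO, against 78.4 and 78.0 in f/f controls and 94.5 and 81.1 in f/+ controls. Both knockouts lay below all controls, as did 5.32% of all genes in Prkci cKO and 6.72% in Prkcz cKO. The log2 change of Cryab was -0.33 in each knockout (adjusted p = 0.0556 in Prkci cKO and 0.107 in Prkcz cKO), and in the knockouts averaged it fell by 0.33 (SE 0.070, adjusted p = 0.0319). That averaged call was lost in 5 of the 11 fits that left out 1 library (adjusted p 0.0159 to 0.112) and ran beside the lower oligodendrocyte sums given above. Hspb6 (0.11) in Prkci cKO and Hspb11 (0.38) in Prkcz cKO were next.

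**Figure D5:**
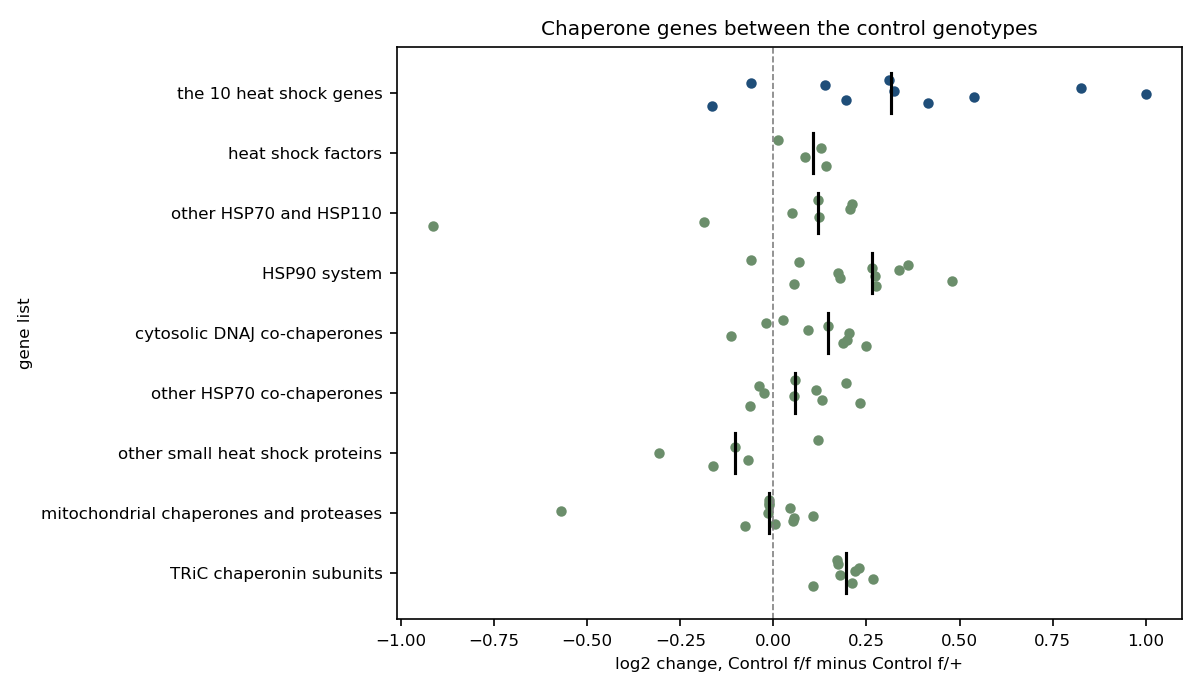
Fitted log2 change of Control f/f minus Control f/+ (x axis) for each tested gene of the 10 heat shock genes (top row) and of 8 wider chaperone lists (other rows); points are genes, black bars are medians and the dashed line marks no change. The HSP90 system (median 0.27) and the TRiC subunits (0.20) lie mostly to the right of 0, and the mitochondrial (-0.01) and small heat shock protein (-0.10) lists do not.

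Between the control genotypes, 0 of the 64 genes passed, with 25 at an unadjusted p under 0.05 (12.6% of all genes). In f/f against f/+ controls the HSP90 system had a median of 0.27, with 10 of 11 above 0. In 7 of its genes both f/f controls were above all other libraries, against 3.68% of all genes. TRiC had a median of 0.20, where 8 of 8 were above 0 and none was above all other libraries in this way. Medians were 0.15 in the J-domain proteins, 0.12 in the other HSP70 and HSP110 genes, 0.11 in the heat shock factors, 0.06 in the other co-chaperones, -0.01 in the mitochondrial list and -0.10 in the small heat shock proteins. Stip1, which links HSP70 to HSP90, had 220.5 and 227 in f/f controls and 179 and 169 in f/+ controls (log2 change 0.36, limma adjusted p = 0.0700). In Prkci cKO against the f/f controls, where 0.872% of all genes were called, Stip1 fell by 0.32 (SE 0.058, limma adjusted p = 0.0219). Ahsa1, which stimulates the ATPase of HSP90, fell there by 0.28 (SE 0.055, adjusted p = 0.0349). Both calls were lost without Control replicate 3, Control replicate 4 or Prkci cKO replicate 1, 2 or 4. In Prkci cKO against the f/+ controls, 2.06% of all genes were called. Of the list genes, Cryab fell there by 0.41 (limma adjusted p = 0.0337), Hspa12a by 0.92 (adjusted p = 0.0388) and Dnajb2 by 0.22 (adjusted p = 0.0449). Each of these calls was lost in 6 or more of the 11 fits that left out 1 library.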

How the data were processed

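The authors deposited 1 table of normalised signal, by gene and library, with 2 decimals and column sums of 1021767 to 1082562. Per the submitters' processing notes, FastQC, Trim Galore, STAR, RSEM and edgeR were used on GRCm38; versions, annotation, strand use and the exact scaling are not stated there. In each library, 86.3% to 89.9% of the values below 0.5 were multiples of 1 step to within 0.005. That gave an estimate of depth, but not whole reads for nearly all genes, so no count test was run. Counting errors from this depth cover counting alone. Genes with at least 1 in at least 3 libraries were tested as log2(value + 0.5), a scale that understates changes of low genes, with limma 3.58.1 in R 4.3.3 (1 term per group, variance trend, two-sided p, Benjamini-Hochberg over all 14330 genes, threshold 0.05, 8 residual degrees of freedom). The protocol in the labels calls the replicates biological. Replicates correlated at 0.992 to 0.996, and no pair of libraries had more than 1.46% of values in common.

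The members and lists were chosen with earlier results of these data known, and the controls were split by genotype label (7 residual degrees of freedom) after the values were seen. Genes named were every member, the chaperone list genes past the threshold in any comparison and the 2 with the smallest p per list and comparison against controls, and the 8 genes most like the members whose mean on the log2 scale was 2 or more. Correlations used exact permutation of 9 libraries or 100000 permutations of 11, adjusted over 45 pairs. Annotation was GENCODE M21, and promoter sequences were from RefSeq. Alternatives covered pseudocount, filter, scaling, variance model, libraries fitted, controls used, leaving out each library and a block for the replicate number. The fit was tested on simulated data.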

Additional observations from a re-analysis of the deposited data

How the results depend on the processing

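Of the 10 counts of called genes or members over all alternatives, 148 values stayed within 1.5 times and 36 moved. Many of the values that stayed are member counts that were 0 in the main fit and remained 0. The tally therefore does not show how stable the counts of called genes were. Of the fitted changes of single members, 840 kept their direction and side of the threshold, 3 came to pass it, 5 fell short of it and 67 turned direction, most of them changes near 0 or fits with only the f/+ controls. Called genes in Prkci cKO were 230, but 346 with array weights and 132 with only the f/f controls. In Prkcz cKO they were 93, but 30 without the variance trend, 29 with only the groups compared and 59 with only the f/f controls. Between the knockouts they were 43, but 112 with array weights, 65 with only the f/f controls and 73 with the replicate block. For the knockouts averaged they were 228, but 151 without the variance trend and 82 with only the f/f controls. For f/f against f/+ controls they were 22, but 12 without the variance trend. Leaving out 1 library gave 95 to 211 in Prkci cKO, 13 to 77 in Prkcz cKO, 10 to 152 between the knockouts, 129 to 236 for the knockouts averaged and 5 to 40 between the control genotypes. Called members went to 1 (Hsph1) with only the f/f controls, in Prkci cKO (log2 change -0.35, limma adjusted p = 0.0191) and in the knockouts averaged (-0.31, adjusted p = 0.0219). Between the control genotypes they were 1, but 0 without the variance trend or on leaving out any control, and 2 (Hsph1 and Dnajb1) with array weights.

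With only the f/+ controls, the log2 changes in Prkci cKO turned to 0.10 for Hspa1a, 0.017 for Hspa1b, 0.29 for Hspb1, 0.021 for Hsp90aa1, 0.057 for Hspa8 and -0.030 for Hspe1. Under the same setting they turned in Prkcz cKO to 0.046 for Hspa1b, 0.040 for Hsph1, 0.19 for Dnajb1, 0.058 for Hspb1, 0.13 for Hspa8, -0.020 for Hspe1 and 0.046 for Hspd1. For the knockouts averaged they turned to 0.031 for Hspa1b, 0.0013 for Hsph1, 0.18 for Hspb1, 0.078 for Hsp90aa1, 0.096 for Hspa8, -0.025 for Hspe1 and 0.014 for Hspd1. With only the f/f controls, Dnajb1 turned to -0.15 in Prkci cKO, Hspa1a to -0.060 and Hsp90aa1 to -0.059 in Prkcz cKO, and Hspa1a to -0.25 and Dnajb1 to -0.19 for the knockouts averaged. Array weights gave -0.0020 for Hspe1 in Prkci cKO, -0.0077 for Bag3 between the knockouts and -0.031 for Dnajb1 in the knockouts averaged, and centring on medians gave 0.0016 for Dnajb1 in Prkcz cKO. The cause of these turns was not tested.

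Leaving out 1 library turned further changes near 0. The ranges in Prkci cKO were -0.022 to 0.13 for Dnajb1, -0.27 to 0.028 for Hspb1 and -0.065 to 0.038 for Hspe1. In Prkcz cKO they were -0.097 to 0.057 for Dnajb1, -0.086 to 0.027 for Hspa8, -0.052 to 0.019 for Hspd1 and -0.033 to 0.059 for Hspe1. Between the knockouts they were -0.013 to 0.082 for Bag3, -0.21 to 0.115 for Hspa1b and -0.076 to 0.033 for Hspe1. For the knockouts averaged they were -0.060 to 0.095 for Dnajb1, -0.053 to 0.020 for Hsp90aa1, -0.089 to 0.15 for Hspa1a and -0.034 to 0.030 for Hspe1. Between the control genotypes Hspe1 ranged from -0.15 to 0.027.

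The check did not settle whether replicate numbers pair the samples. Deviations of same-numbered libraries correlated at -0.186 to 0.196, over 0.1 in 5 of 10 pairs, and 6 of 11 libraries correlated best with their own number. The replicate block gave 263 called genes in Prkci cKO, 69 in Prkcz cKO and 204 for the knockouts averaged, called 0 members in each, and in Prkcz cKO turned Dnajb1 to 0.019 and Hspa8 to 0.0021. The block could not be fitted to the control genotypes, which share no number, and only the groups compared is the same fit as the main one for the knockouts averaged. Depth limits Hspb1, Hspa1a, Hspa1b and Bag3 most.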

Other observations

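Hspa12a, an HSP70-like gene of neurons and of the wider HSP70 list, took separate levels that did not follow the groups. It had 337, 364, 398 and 351 in Prkci cKO and 385, 705 and 330 in Prkcz cKO, against 375 and 350 in f/f controls and 678 and 689 in f/+ controls. Of the 11 libraries, 3 (Prkcz cKO replicate 2 and both f/+ controls) held 678 to 705 and the other 8 held 330 to 398. Its log2 change was -0.46 (SE 0.241, limma adjusted p = 0.489) in Prkci cKO against all controls, and -0.92 (adjusted p = 0.193) in f/f against f/+ controls.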
